A study of Mus musculus with 2 samples.

Results

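Imprinted genes were followed in single cells of the mouse pancreatic islet, from animals with a conditional deletion of Isl1 and from controls. A list of 34 genes known to be imprinted in mouse was looked up by symbol, and those with at least 20 UMIs in the cells of either library were kept. A UMI (unique molecular identifier) stands for 1 captured RNA molecule. Of the 34 symbols, 33 were found in the gene list, and 30 genes passed, out of 46983 genes counted. H19 and Phlda2 had 0 UMIs in the cells of both libraries, and Magel2 had 0 in Isl1CKO and 1 in control cells. Isl1CKO mice were Neurod1 Cre/+; Isl1f/f, and control mice were Neurod1 Cre/+; Isl1f/+, so the control animals also carried the Cre and 1 floxed allele. All animals were 1 month old and carried a tdTomato reporter, which was used to sort the cells. The pancreases of 3 animals were pooled for each genotype, and each pool gave 1 library with the 10x 3′ kit, after a dissociation with actinomycin D, a blocker of transcription.

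An imprinted gene is transcribed mainly from the copy inherited from one parent, because DNA methylation laid down in the egg or sperm marks the parental copies differently. Most imprinted genes lie in clusters that share a methylated control region, and many of them regulate growth before and after birth. In the islet, imprinted genes are known for effects on beta cell number, insulin processing and insulin signalling, while Isl1 is a LIM-homeodomain transcription factor needed for the maturation of all hormone-producing islet cell types. The counts do not separate the parental copies, so everything below concerns the total RNA of each gene.

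The Isl1CKO library held 86086781 UMIs and 8231 cells, with a median of 8137 UMIs per cell, and the control library 48685758 UMIs and 4219 cells, with a median of 9015. Cells were called endocrine when each of 5 non-endocrine marker lists (acinar, stromal, endothelial, immune and Schwann) took under 1% of their UMIs, which kept 8151 Isl1CKO and 4206 control cells. The labels call the Isl1CKO animals female and male and the control animals male, but 971 of the 4206 control endocrine cells (23.1%) had Xist and no Y-linked UMIs, as did 5332 of the 8151 Isl1CKO cells (65.4%). Such cells are called female and cells with a Y-linked UMI and no Xist UMI male (1682 in Isl1CKO, 1734 in control). Since the animals were pooled, the sex of a cell and the animal it came from cannot be told apart, and results are given below within each sex where the sexes differ. The pan-endocrine markers (Chga, Chgb and others, 7 genes, none at 0) summed to 103677 unscaled CPM (UMI counts brought to a common total) in Isl1CKO and to 20380 CPM in control endocrine cells, and each of the 5 non-endocrine lists to between 0.931 and 183 CPM in Isl1CKO and between 5.19 and 154 CPM in control. These 5 lists had been used to remove cells, so their low sums were in part set by that rule. A ductal marker list of 6 genes, which was not used to remove cells, summed to 396 CPM in Isl1CKO and 254 CPM in control endocrine cells. Isl1 itself had 245 CPM in Isl1CKO and 306 CPM in control endocrine cells. The floxed exons are not given in the sources used here, and a 3′ tag outside them would not show the deletion. The 2 libraries shared 8 cell barcodes. Since each genotype is 1 library, no test between genotypes was possible, and the 95% intervals below cover counting error only.

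Because hormone RNA was scarce in Isl1CKO (7037 of its 8151 endocrine cells had no islet hormone at 1% of UMIs, against 103 of 4206 in control), cells were grouped by lineage transcription factors as well as by hormones. Alpha-factor cells had at least 2 UMIs over a set of alpha cell transcription factors that includes Irx1 and Irx2 (1883 in Isl1CKO, 1743 in control). Beta-factor cells had Nkx6-1, and at least 2 UMIs of Nkx6-1 and Pdx1 together (2487 in Isl1CKO, 476 in control). Delta-factor cells had at least 2 UMIs of Hhex (54 in Isl1CKO, 294 in control). Cells that met more than 1 of these rules were left out of these groups and called mixed-factor (528 in Isl1CKO, 264 in control). Cells that met none were called no-factor. Hormone groups held cells with 1 hormone at 1% of UMIs or more, and only Gcg-only cells (172 in Isl1CKO, 1577 in control) and insulin-only cells (928 in Isl1CKO, 188 in control) reached 50 cells in both libraries.

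Among the members with wide differences in the results below were Mest, Peg10 and Nnat, which were lower in Isl1CKO, and Dlk1, which was higher. The 250 bases before a start site of Mest, Nnat and Dlk1 are shown for the CG dinucleotides, the sites that DNA methylation uses, printed in capitals; methylation was not measured here. They are the RefSeq promoter windows of GRCm38.p6, 5′ to 3′ on the gene's strand. Mest (chr6:30737800-30738049, + strand) has 3 start sites in the table, of which the one with the most CG is shown, and it lies inside the annotated gene (chr6:30723547-30748465). The windows of Nnat (chr2:157559828-157560077, + strand) and Dlk1 (chr12:109452573-109452822, + strand) end directly before their genes.
Mest: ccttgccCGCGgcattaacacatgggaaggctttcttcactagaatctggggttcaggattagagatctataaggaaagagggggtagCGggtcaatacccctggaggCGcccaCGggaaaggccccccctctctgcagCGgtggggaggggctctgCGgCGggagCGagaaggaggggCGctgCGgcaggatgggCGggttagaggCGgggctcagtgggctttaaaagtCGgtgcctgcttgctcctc
Nnat: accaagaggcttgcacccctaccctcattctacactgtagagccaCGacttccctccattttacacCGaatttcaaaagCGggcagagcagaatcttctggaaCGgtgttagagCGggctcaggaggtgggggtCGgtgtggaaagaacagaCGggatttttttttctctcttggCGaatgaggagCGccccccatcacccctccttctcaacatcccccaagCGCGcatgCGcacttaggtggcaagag
Dlk1: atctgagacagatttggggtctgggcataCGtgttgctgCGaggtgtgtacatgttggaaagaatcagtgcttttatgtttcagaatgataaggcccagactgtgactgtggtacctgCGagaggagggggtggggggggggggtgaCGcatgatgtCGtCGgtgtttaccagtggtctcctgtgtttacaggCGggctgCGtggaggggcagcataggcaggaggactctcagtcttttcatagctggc
Mest holds 14 CG in this window, Nnat 12 and Dlk1 8, counts that 29.4%, 33.5% and 43% of 32851 mouse promoter windows of the same length reach or pass. Over the 25 members found in the table, each taken at its start with the most CG, the median was 14 CG (range 0 to 40). The median over all windows was 6. Those windows were not chosen by CG number, so the 2 medians are not on the same basis. Mest also hosts the hairpin of miR-335, whose mature arms (chr6:30741314-30741336 and chr6:30741354-30741375) are shown with the seed, bases 2 to 8, in capitals.
miR-335-5p: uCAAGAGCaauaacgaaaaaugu
miR-335-3p: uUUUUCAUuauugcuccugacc
The RefSeq table also places 3 mature miRNAs within Meg3, 6 within Rian, 26 within Mirg, 2 within Igf2 and 2 within Usp29. The 3′ UMI counts measure the host transcripts and not the mature miRNAs.

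Levels are given as CPM scaled by TMM (trimmed mean of M-values, which sets the bulk of genes to the same level in every sum of cells), with all sums scaled to the control endocrine cells. A gene counts as measured with at least 5 CPM and 20 UMIs in 1 of the 2 sums compared, and as higher or lower at a 2-fold difference. In the endocrine cells as a whole 27 members were measured. Zrsr1 and Dlk1 were higher in Isl1CKO, which is 7.41% of the members, beside 6.45% of all 9923 measured genes. Mest, Peg10, Nnat, Sgce and Ndn were lower, which is 18.5% of the members, beside 6.17% of all genes. The median log2 ratio of Isl1CKO over control was −0.26 over the members and 0.05 over all measured genes, and 7 of the 27 ratios were above 0. These counts depend on how the sums are scaled. Unscaled CPM put all log2 ratios 0.54 higher in endocrine, 0.45 in alpha-factor and 0.80 in beta-factor cells and gave 2 higher and 3 lower members in endocrine cells, 4 and 3 in alpha-factor and 6 and 2 in beta-factor cells. Totals without hormone UMIs gave 1 higher and 6 lower, 1 and 7, and 1 and 6 in the same 3 groups. Shares over all genes are not given for these scalings, so these counts cannot be set against a background. In alpha-factor cells 2 of 26 members were higher (all genes, 6.62%) and 4 lower (6.74%), with a member median of −0.35 and 0.04 over all genes. In beta-factor cells 1 of 26 was higher (6.6%) and 5 were lower (6.1%), with a member median of −0.19 and 0.02 over all genes. Genes usually expressed from the paternal copy had a median of −0.62 over 17 genes in endocrine cells and those expressed from the maternal copy −0.13 over 8 genes. In alpha-factor cells these medians were −0.29 and −0.41, so that the order of the classes differed between cell groups.

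**Figure D1:**
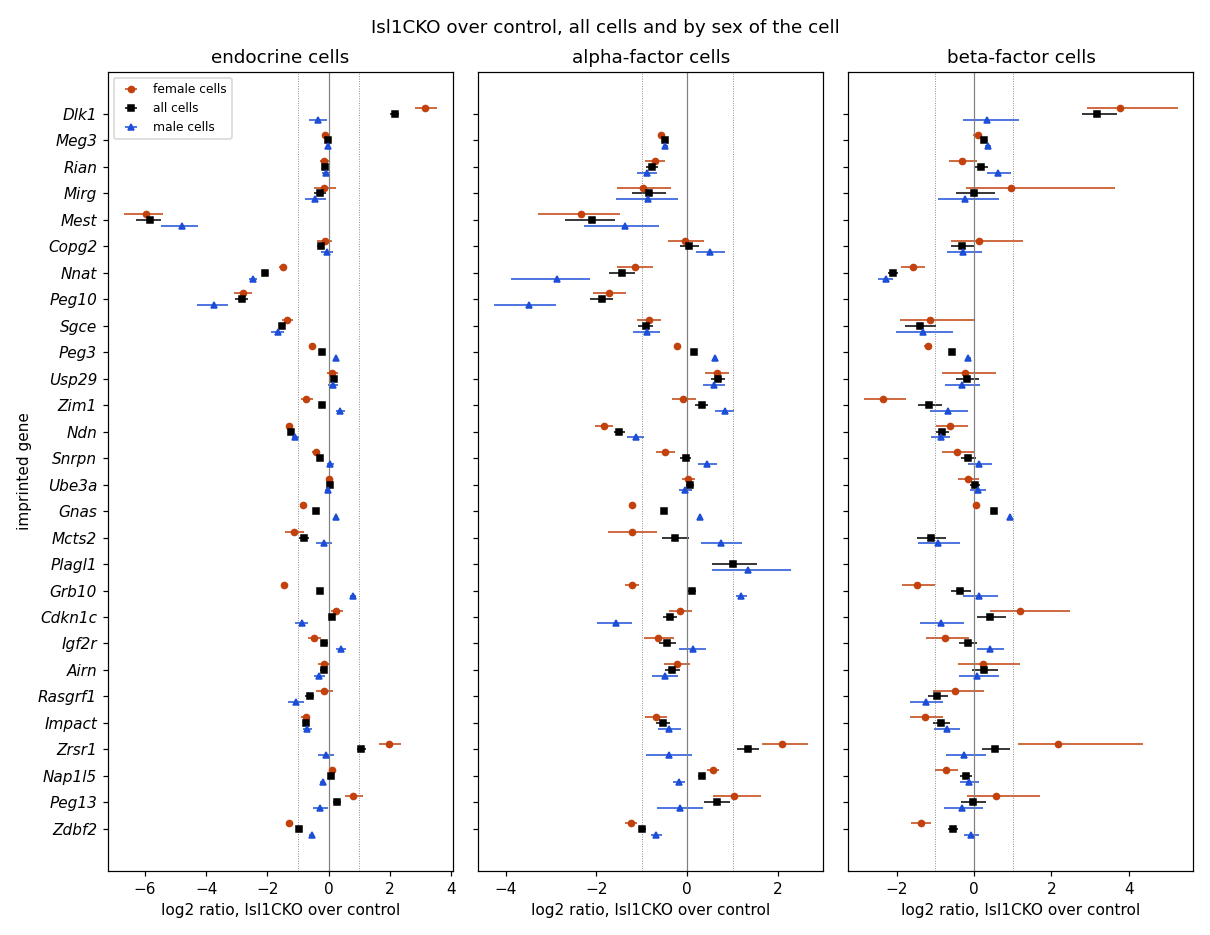
Log2 ratio of Isl1CKO over control (x axis) for each measured member (rows) in endocrine, alpha-factor and beta-factor cells, with the points for female cells, all cells and male cells and 95% counting intervals; dotted lines mark 2-fold. Mest, Peg10, Nnat, Sgce and Ndn lie left of the lower line in all endocrine cells, and Dlk1 lies far right in female but not in male cells. Mest in beta-factor cells, with 0 UMIs in Isl1CKO, is not drawn.

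Mest, which encodes a protein of the alpha/beta-hydrolase family and is usually read from the paternal copy, showed the widest difference. It had 0.465 CPM (52 UMIs) in Isl1CKO and 27.1 CPM (1211 UMIs) in control endocrine cells, a log2 ratio of −5.84 (95% interval −6.30 to −5.47). The ratio was −5.96 in female and −4.79 in male cells. Mest was therefore far below control in both sexes. In control islets its level was highest in delta cells, since Sst-only cells had 79.3 CPM (67.8 to 92.1) and delta-factor cells 78.4 CPM (69.1 to 88.7), 2 levels that overlap. Beta-factor cells had 16.6 CPM, alpha-factor cells 6.10, Gcg-only cells 2.02, Ppy-only cells 1.16 and insulin-only cells 0.433 CPM from 1 UMI. Cells with several hormones, 40.0% of the control endocrine cells, had 50.8 CPM and held 82.7% of its Mest UMIs, and the order above is that of the groups with a single hormone or factor set. No Mest UMI was found in the 54 Isl1CKO delta-factor cells, against 253 UMIs in 294 control ones, which is at least 20.02-fold lower when set against a floor of 3 counts in the Isl1CKO sum. Beta-factor cells had 0 UMIs in Isl1CKO and 96 in control, at least 229-fold lower against the same floor, and at least 146-fold lower in female and 54.1-fold lower in male cells. Insulin-only cells had 0 UMIs in Isl1CKO and 1 in control, so Mest was not measured there. At most 1 of the 96 control UMIs thus came from cells with insulin alone, and a loss of Mest in such cells was not shown. Alpha-factor cells had 1.39 CPM in Isl1CKO and 6.10 CPM in control, a log2 ratio of −2.11 (−2.69 to −1.60). With likely doublets left out, this ratio was −1.40 and the gene no longer reached the level for being measured there. Of the 52 Isl1CKO UMIs, 27 came from the 172 Gcg-only cells.

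Free RNA in the droplets followed the same pattern, since near-empty barcodes (10 to 100 UMIs) had 0.752 CPM of Mest in Isl1CKO and 23.6 CPM in control, beside 0.673 and 27.1 CPM in endocrine cells on the same unscaled basis. Its part in the low control levels outside delta cells was not tested. To compare shares of cells at equal depth, each cell was thinned to 3000 UMIs, and shallower cells were left out. A Mest UMI was then seen in 0 of 51 Isl1CKO delta-factor cells, a result that a true share as high as 5.88% (3 counts) could give, against 23.5% (18.8% to 28.8%) of 293 control ones. Before thinning the shares were 0% in Isl1CKO and 45.6% in control. In the 49 Isl1CKO cells of that depth grouped as acinar, no Mest UMI was seen either. Near-empty Isl1CKO barcodes already held 7929 unscaled CPM of the acinar list, so free RNA may add to this group. Over all cells grouped as acinar, Meg3 had 829 unscaled CPM, beside 907 in Isl1CKO endocrine cells, and Gnas 1705, beside 4464. Whether these acinar cells are a type outside the islet was not tested. The low number of delta-factor cells and less RNA per cell cannot be told apart in the endocrine sum. The values within delta-factor and beta-factor cells do not depend on how many such cells there were. They can still depend on the make-up of these groups, since the hormones of their cells were not matched. Cells with several hormones were 0.098% of the Isl1CKO and 40.0% of the control endocrine cells, and their part in these values was not tested.

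Nnat (neuronatin) is a small protein of the endoplasmic reticulum membrane that in beta cells assists the processing of preproinsulin, and it is usually read from the paternal copy. Its level was 25.1 CPM (2809 UMIs) in Isl1CKO and 107 CPM (4788 UMIs) in control endocrine cells, a log2 ratio of −2.09 (−2.16 to −2.03), with −1.50 in female and −2.48 in male cells. Among the control groups with 1 hormone or 1 factor set, Nnat was highest in delta-factor cells at 335 CPM (316 to 356), followed by Sst-only cells at 286 (263 to 309), insulin-only cells at 179 (162 to 197) and beta-factor cells at 143 CPM. Cells with several hormones had 182 CPM and held 75.1% of the control Nnat UMIs, and no-factor cells had 175 CPM. Alpha-factor cells had 14.8 and Gcg-only cells 1.64 CPM. In Isl1CKO, delta-factor cells had 45.7 CPM (31.8 to 63.5), beta-factor cells 33.4, insulin-only cells 24.8, Gcg-only cells 7.14 and alpha-factor cells 5.46 CPM. The range between cell groups was thus narrower in Isl1CKO, and its delta-factor, beta-factor and insulin-only cells were all below those of control. The log2 ratio was −2.10 (−2.22 to −1.97) in beta-factor and −1.44 (−1.73 to −1.15) in alpha-factor cells. The alpha-factor value lost its 2-fold size without doublets (−0.70), under a stricter factor rule (−0.85) and without the TMM scaling (−0.98). At 3000 UMIs, 19.6% of Isl1CKO and 60.1% of control delta-factor cells had a Nnat UMI, and 10.6% and 25.2% of beta-factor cells (before thinning, 35.2% and 77.21% of delta-factor cells). The share was 4.08% in Isl1CKO acinar cells, whose median depth was 7257 UMIs, beside 7640 UMIs in Isl1CKO and 7594 in control delta-factor cells. Near-empty barcodes held 31.6 unscaled CPM in Isl1CKO and 109 in control, beside 36.3 and 107 in endocrine cells on the same basis.

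**Figure D2:**
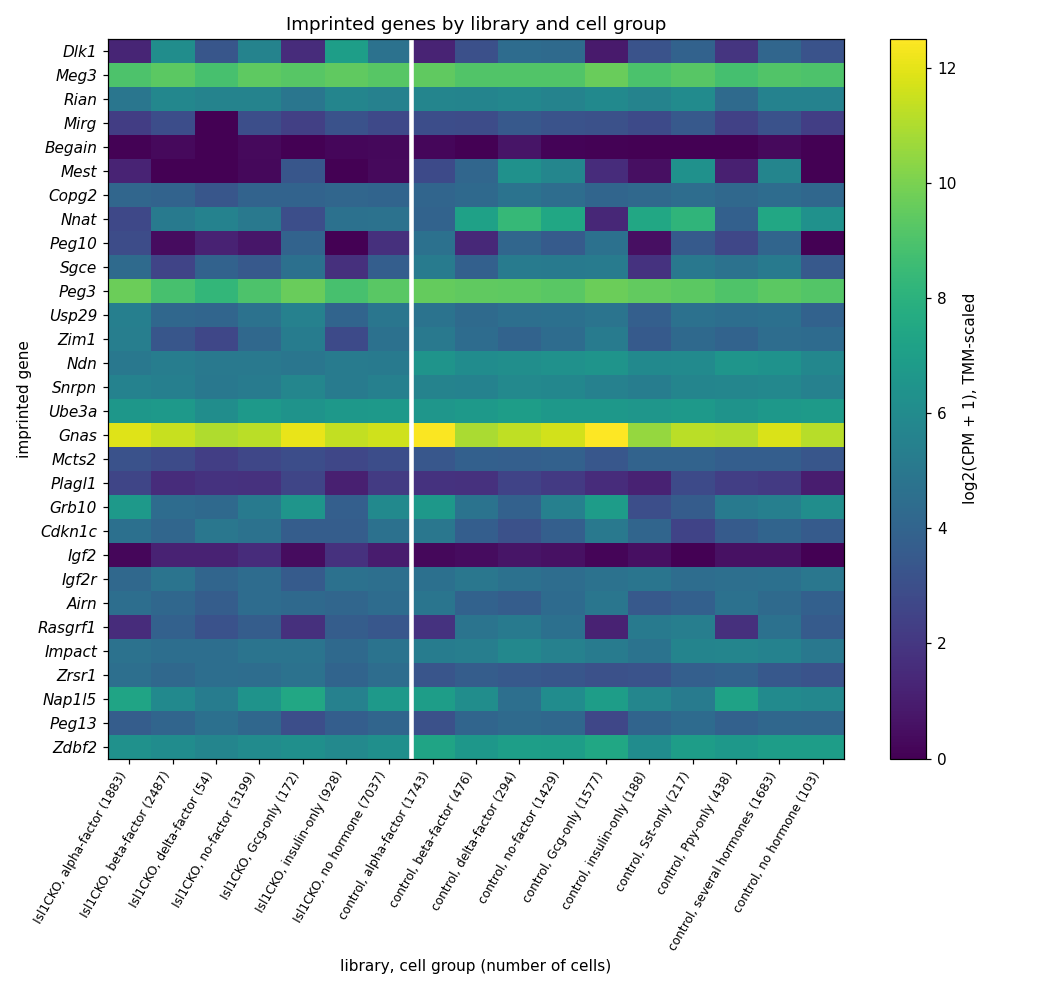
Level of each member (rows) as log2(CPM + 1) in the cell groups of Isl1CKO (left columns) and control (right columns) with at least 50 cells. Mest and Nnat are strongest in control Sst-only and delta-factor cells, and Dlk1 in Isl1CKO insulin-only cells.

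Peg10 and Sgce are neighbours on chromosome 6 that are transcribed away from each other (Peg10 at chr6:4747306-4760517 on the + strand and Sgce at chr6:4674350-4747207 on the − strand) and share a control region. Peg10 derives from a retrotransposon and is needed in the mouse placenta, and Sgce encodes epsilon-sarcoglycan. Both were lower in Isl1CKO. Peg10 had 2.34 CPM in Isl1CKO and 16.8 CPM in control endocrine cells (log2 ratio −2.84, −3.05 to −2.63), with −2.79 in female and −3.74 in male cells. For Sgce the levels were 11.3 CPM in Isl1CKO and 32.6 CPM in control (−1.53, −1.64 to −1.42), with −1.35 in female and −1.66 in male cells. In control, Peg10 was highest in alpha cells, where Gcg-only cells had 24.7 and alpha-factor cells 24.4 CPM, ahead of delta-factor cells 16.4, Sst-only cells 10.7, Ppy-only cells 5.31, beta-factor cells 1.73 and insulin-only cells 0.433 CPM (1 UMI). Within alpha-factor cells Peg10 was 6.57 CPM in Isl1CKO and 24.4 CPM in control (−1.89, −2.14 to −1.64), and a UMI was seen in 1.18% of Isl1CKO and 5.17% of control cells at 3000 UMIs (before thinning, 2.18% and 11.7%). No Peg10 UMI was found in the Isl1CKO acinar cells. Near-empty barcodes had 1.25 unscaled CPM of Peg10 in Isl1CKO and 17.5 in control, beside 3.39 and 16.7 in endocrine cells on the same basis. Sgce had 19 CPM in Isl1CKO and 35.9 CPM in control alpha-factor cells, under 2-fold, and 5.00 and 13.2 CPM in beta-factor cells (−1.41, −1.781 to −0.996). Without TMM scaling the Sgce ratio was −0.98 in endocrine and −0.61 in beta-factor cells, under 2-fold in both. The 172 Gcg-only cells that Isl1CKO still held had 15 CPM of Peg10, against 24.7 CPM in control, and 23.8 CPM of Sgce, against 36.0 CPM, differences under 2-fold for both genes.

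**Figure D3:**
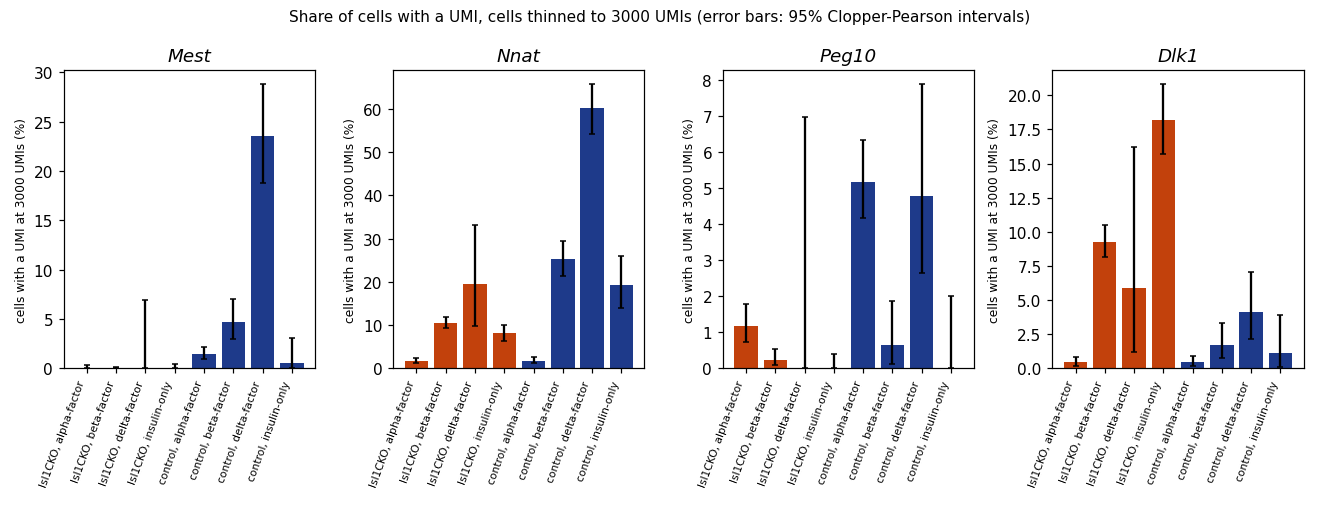
Share of cells with at least 1 UMI of Mest, Nnat, Peg10 or Dlk1 (y axis, percent, with exact binomial intervals) after thinning to 3000 UMIs, in alpha-factor, beta-factor, delta-factor and insulin-only cells of Isl1CKO and control. Mest and Nnat are rarer in Isl1CKO delta-factor cells, and Dlk1 is found in 18.2% of Isl1CKO and 1.10% of control insulin-only cells.

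Dlk1, a membrane protein with EGF-like repeats related to the Notch ligands and usually read from the paternal copy, had the largest positive ratio. It had 40.9 CPM (4572 UMIs) in Isl1CKO and 9.14 CPM (408 UMIs) in control endocrine cells, a log2 ratio of 2.16 (2.01 to 2.31). Over all endocrine cells the difference was 2-fold or more in female cells and not in male cells. Female cells had 57.2 CPM in Isl1CKO and 6.33 CPM in control (3.16), and male cells 7 and 8.88 CPM (−0.34). By cell group, Isl1CKO insulin-only cells had 127 CPM (122 to 133), against 8.23 CPM (4.95 to 12.8) in control, a log2 ratio of 3.88 (3.31 to 4.69). Beta-factor cells had 67.9 CPM in Isl1CKO and 7.27 CPM in control, 3.19 (2.78 to 3.70). Insulin-only cells were 11.4% of the Isl1CKO endocrine cells and held 49.2% of their Dlk1 UMIs. Within Isl1CKO insulin-only cells, female cells had 200.3 CPM and male cells 19.1 CPM. The lowest insulin-only log2 ratio over all alternatives, male cells alone included, was 1.26, so Dlk1 stayed past 2-fold in that group. In beta-factor cells the female level was 104 CPM in Isl1CKO and 6.71 CPM in control, and the male level 9.77 CPM in Isl1CKO and 7.45 CPM in control, a log2 ratio of 0.33 (−0.29 to 1.15) for the males. The counting intervals of the 2 control sexes overlapped, and the Isl1CKO female cells stood apart from the other 3 sums. At 3000 UMIs a Dlk1 UMI was seen in 13.4% of Isl1CKO and 3.70% of control female beta-factor cells, and in 2.25% of Isl1CKO and 0.962% of control male ones (before thinning, 23.8% and 6.17% of female, 6.27% and 5.71% of male cells). Isl1CKO acinar cells had a UMI in 4.08%. Near-empty barcodes held 23.8 unscaled CPM of Dlk1 in Isl1CKO and 5.14 in control, beside 59.1 and 9.13 in endocrine cells on the same basis. Alpha-factor cells had 1.43 CPM in Isl1CKO and 1.33 CPM in control. In control the highest level was 20.1 CPM (15.5 to 25.7), in delta-factor cells.

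Meg3, Rian and Mirg are noncoding RNAs read from the maternal copy of the same chromosome 12 region, in which they host small nucleolar RNAs and miRNAs. They did not share the Dlk1 difference under TMM scaling. Meg3 had 626 CPM in Isl1CKO and 637 CPM in control endocrine cells (−0.02), Rian 45.5 and 49.7 CPM (−0.13), and Mirg 6.10 and 7.43 CPM (−0.29). In alpha-factor cells all were lower but under 2-fold, with Meg3 at 507 CPM in Isl1CKO and 707 CPM in control (−0.48), Rian at 29.3 and 50.1 CPM (−0.77) and Mirg at 3.82 and 6.82 CPM (−0.83). In beta-factor cells Meg3 was 664 CPM in Isl1CKO and 554 CPM in control (0.26) and Rian 54.4 and 48.1 CPM (0.17), while unscaled CPM, which put all ratios there 0.80 higher, gave 1.06 for Meg3. Across control groups Meg3 ran between 449 CPM in Ppy-only and 793 CPM in Gcg-only cells, and Rian between 19.2 CPM in Ppy-only and 65.4 CPM in Sst-only cells. Meg3 UMIs were hence found in every islet group. Near-empty barcodes held 709 unscaled CPM of Meg3 in Isl1CKO and 439 in control, beside 907 and 636 in endocrine cells on the same basis. The part of this free RNA in the level of each group was not tested. Begain, at the edge of the region, had 21 UMIs in Isl1CKO and 6 in control endocrine cells and was not measured.

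Ndn (necdin), a growth-suppressing MAGE-family protein of the Prader-Willi region, had a ratio below 0 in all 5 comparisons under TMM scaling, although without it the insulin-only ratio was 0.39. It had 35.2 CPM in Isl1CKO and 83.5 CPM in control endocrine cells, a log2 ratio of −1.24 (−1.31 to −1.18), with −1.29 in female and −1.09 in male cells. Its ratio was −1.49 (−1.61 to −1.38) in alpha-factor cells, with 31.4 CPM in Isl1CKO and 88.4 CPM in control, and −0.82 in beta-factor cells, with 38.0 and 66.8 CPM. Its level was even across groups and ran from 28.6 to 38.0 CPM over the Isl1CKO groups and from 54.0 to 90.8 CPM over the control groups, ranges that did not overlap. The endocrine ratio was −0.70 without TMM scaling. The neighbouring paternal gene Snrpn, a spliceosome component, had 42.2 CPM in Isl1CKO and 51.2 CPM in control endocrine cells (−0.28). Ube3a, a ubiquitin ligase read from the maternal copy in neurons, had 105 CPM in Isl1CKO and 101 CPM in control (0.05). The low Ndn level was therefore not shared by these neighbours.

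Peg3, Usp29 and Zim1 share a control region on chromosome 7. Peg3, a zinc finger protein read from the paternal copy, had 615 CPM in Isl1CKO and 710 CPM in control endocrine cells (−0.21), with 499 and 731 CPM in female (−0.55) and 888 and 746 CPM in male cells (0.25). Usp29, a deubiquitinase, had 27.2 CPM in Isl1CKO and 24.1 CPM in control endocrine cells, and 41.7 and 26.1 CPM in alpha-factor cells (0.68, 0.53 to 0.83). Zim1, a zinc finger gene read from the maternal copy, was 9.04 CPM in Isl1CKO and 20.1 CPM in control beta-factor cells, a log2 ratio of −1.16 (−1.46 to −0.84). This value varied with the cells and the scaling, and was −2.35 in female cells (6.94 CPM in Isl1CKO, 34.5 CPM in control), −0.67 in male cells, −0.99 without doublets, −0.97 under a stricter factor rule and −0.36 without TMM scaling. In alpha-factor cells Zim1 had 40.0 CPM in Isl1CKO and 32.0 CPM in control (0.32).

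Among the growth regulators, Grb10, an adaptor that dampens insulin and IGF receptor signalling, had 54.1 CPM in Isl1CKO and 66.3 CPM in control endocrine cells (−0.29). The sexes differed in direction, since female cells had 33.1 CPM in Isl1CKO and 91.0 CPM in control (−1.46) and male cells 102 CPM in Isl1CKO and 58.7 CPM in control (0.79). Alpha-factor cells had 109.5 CPM in Isl1CKO and 102 CPM in control, Gcg-only cells 90.1 and 120 CPM, and insulin-only cells 12.7 and 6.93 CPM. Cdkn1c, a cyclin-dependent kinase inhibitor that restrains proliferation, had 22.2 CPM in Isl1CKO and 20.6 CPM in control endocrine cells (0.11). In Gcg-only cells it was lower, at 11.9 CPM in Isl1CKO and 31.9 CPM in control, a log2 ratio of −1.39 (−1.96 to −0.93). Igf2, a fetal growth factor, had 131 UMIs in Isl1CKO and 14 in control endocrine cells, at 1.17 and 0.314 CPM, and was not measured. Igf2r, the receptor that clears it, had 22.6 CPM in Isl1CKO and 24.8 CPM in control (−0.14). Airn, the noncoding RNA antisense to Igf2r, had 20.2 CPM in Isl1CKO and 22.7 CPM in control (−0.17); whether strand was used in counting is not given in the sources used here, so reads of these 2 genes may be mixed. Plagl1, a zinc finger transcription factor, was measured in alpha-factor cells only, where it had 5.14 CPM (144 UMIs) in Isl1CKO and 2.51 CPM (49 UMIs) in control, a log2 ratio of 1.01 (0.56 to 1.53), or 0.80 once hormone UMIs were removed from the totals.

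Gnas encodes the stimulatory G protein subunit that couples the GLP-1 and other receptors to cyclic AMP, and its gene count sums transcripts that are imprinted in opposite directions with one that is not. It had 3084 CPM in Isl1CKO and 4072 CPM in control endocrine cells (−0.40), 3797 and 5443 CPM in alpha-factor cells (−0.52) and 2804 and 1956 CPM in beta-factor cells (0.52). Over cells of both sexes the direction thus differed between alpha-factor and beta-factor cells, although without TMM scaling the alpha-factor ratio was −0.06. Within alpha-factor cells the ratio was −1.23 in female cells (2225 CPM in Isl1CKO, 5206 CPM in control) and 0.28 in male cells (6642 and 5478 CPM). Within beta-factor cells it was 0.04 in female cells (2329 and 2266 CPM) and 0.94 in male cells (3351 and 1747 CPM), so that male cells were above control in both groups. Rasgrf1, a Ras exchange factor, had 9.90 CPM in Isl1CKO and 15.2 CPM in control endocrine cells (−0.62), and 13.9 and 26.7 CPM in beta-factor cells (−0.95). Impact, a regulator of translation under amino acid stress, had 25.3 CPM in Isl1CKO and 42.4 CPM in control endocrine cells (−0.74). Zdbf2, a zinc finger gene that acts on growth through the mouse hypothalamus, had 71.5 CPM in Isl1CKO and 139 CPM in control (−0.96, −1.01 to −0.91), just under 2-fold, with −0.99 in alpha-factor cells. Copg2, a coatomer subunit whose gene overlaps Mest on the other strand, had 15.5 CPM in Isl1CKO and 18.6 CPM in control (−0.26).

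Zrsr1, Mcts2, Nap1l5 and Peg13 each lie within an intron of another gene and are read from the paternal copy. Zrsr1, a retrotransposed copy of the splicing factor gene Zrsr2, had 20.4 CPM in Isl1CKO and 9.74 CPM in control endocrine cells, a log2 ratio of 1.07 (0.92 to 1.22). In alpha-factor cells it had 22.5 CPM in Isl1CKO and 8.87 CPM in control (1.33, 1.09 to 1.59). Male cells did not show the difference, with endocrine and alpha-factor ratios of −0.10 and −0.40, and once hormone UMIs were removed from the totals the endocrine ratio was 0.91. At 3000 UMIs a Zrsr1 UMI was seen in 8.79% of Isl1CKO and 2.80% of control endocrine cells, and in 6.12% of Isl1CKO acinar cells (before thinning, 22.2%, 9.30% and 22.7%). Mcts2, a retrotransposed copy of Mcts1, had 6.64 CPM in Isl1CKO and 11.7 CPM in control endocrine cells (−0.82), and 6.19 and 13.3 CPM in beta-factor cells (−1.12, −1.48 to −0.72). This beta-factor ratio was −0.94 in male cells and −0.32 without TMM scaling. Reads of Zrsr1 and Mcts2 may be shared with their parent genes, of which Zrsr2 had 34.5 CPM in Isl1CKO and 48.9 CPM in control, and Mcts1 30.0 and 40.5 CPM. Nap1l5, a nucleosome assembly protein homologue, had 97.8 CPM in Isl1CKO and 92.0 CPM in control (0.09), and its highest levels were in Isl1CKO Gcg-only cells (177 CPM) and control Ppy-only cells (148 CPM). Peg13, a noncoding RNA, had 15.3 CPM in Isl1CKO and 12.7 CPM in control (0.27).

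The differences between female and male cells were then set side by side in each library. In Isl1CKO endocrine cells 3 of 25 measured members were at least 2-fold higher in female cells (all genes, 4.9%) and 3 were lower (5.93%). Those higher were Dlk1 with 57.2 CPM in female and 7 CPM in male cells, Cdkn1c with 27.9 and 10.8 CPM, and Zrsr1 with 26.2 and 10.4 CPM. Grb10 was lower, with 33.1 CPM in female and 102 CPM in male cells, as were Zim1 with 16.2 and 34.6 CPM and Mcts2 with 4.91 and 10.3 CPM. In control endocrine cells 0 of 27 were at least 2-fold higher (0.179%) and 0 lower (0.315%). In Isl1CKO alpha-factor cells 4 of 24 were higher (6.95%) and 5 lower (9.17%), among them Gnas with 2225 CPM in female and 6642 CPM in male cells and Grb10 with 52.6 and 215 CPM. Control alpha-factor cells had 0 of 25 higher (0.37%) and 0 lower (0.487%), with Gnas at 5206 CPM in female and 5478 CPM in male cells. In Isl1CKO beta-factor cells 2 of 25 were higher, Dlk1 and Cdkn1c (3.85%), and 1 was lower, Igf2r (6.37%). Igf2r had 18.3 CPM in female and 38.3 CPM in male cells. The same 3 genes were the ones past 2-fold in Isl1CKO beta-factor cells without a hormone, Dlk1 with 72.0 CPM in female and 6.49 CPM in male cells and Cdkn1c higher (4.11%), and Igf2r lower (6.06%). In Isl1CKO insulin-only cells 3 of 24 were higher in female cells, Dlk1, Cdkn1c and Nnat (4.28%), and 1 was lower, Zim1 (7.42%). Control beta-factor cells, with 81 female and 210 male cells, had 1 of 25 higher, Grb10 (0.8%), and 1 lower, Zrsr1 (2.64%). The median difference between the sexes over all genes was wider in Isl1CKO than in control endocrine cells, with a median absolute log2 ratio of 0.45 over members and 0.37 over all genes in Isl1CKO, against 0.10 and 0.12 in control. In alpha-factor cells these medians were 0.80 over members and 0.45 over all genes in Isl1CKO, against 0.18 and 0.15 in control, and in beta-factor cells 0.38 and 0.35 in Isl1CKO, against 0.38 and 0.24 in control. Isl1CKO insulin-only cells had 0.58 over members and 0.37 over all genes. tdTomato had 5071 CPM in female and 1052 CPM in male cells of Isl1CKO, and 721 and 1187 CPM in those of control.

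**Figure D4:**
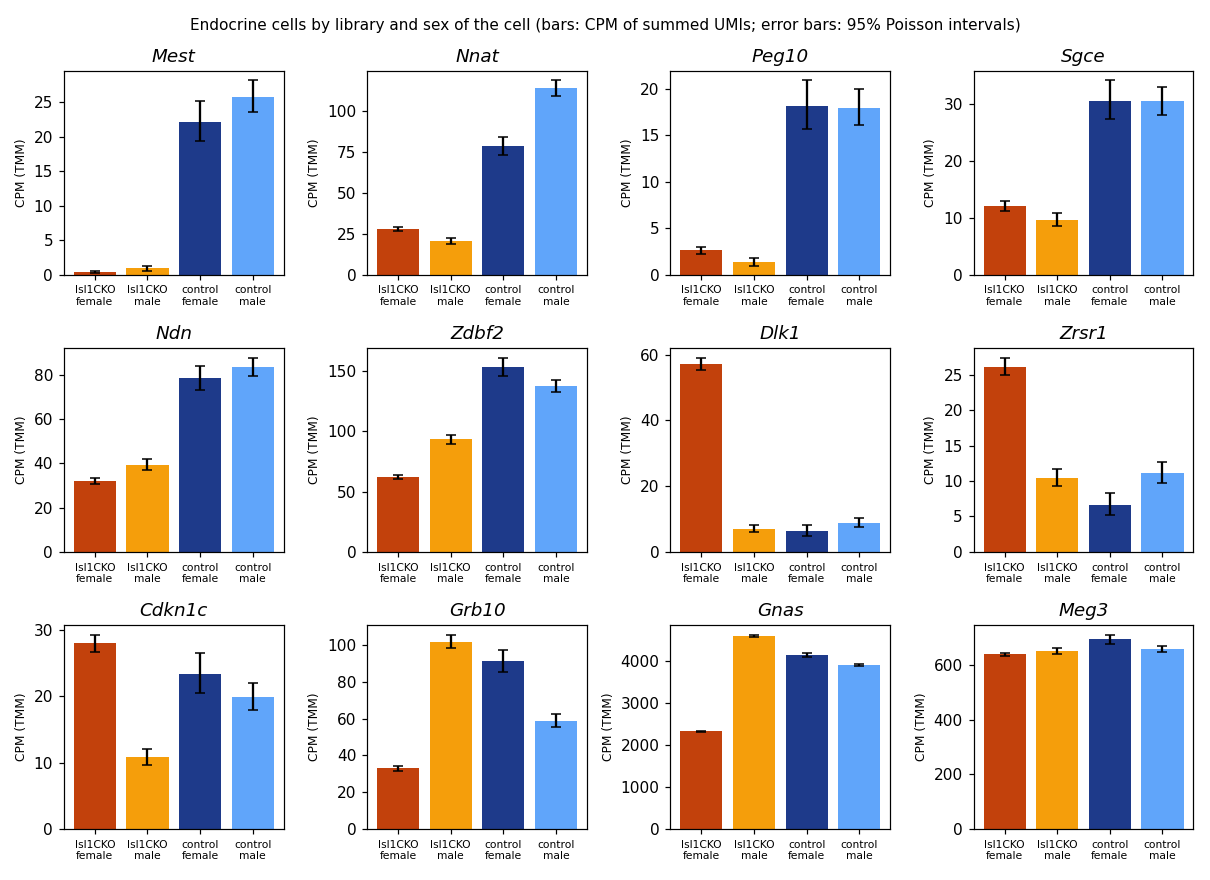
Level in CPM (y axis, with 95% counting intervals) of 12 members in endocrine cells, as bars for Isl1CKO female, Isl1CKO male, control female and control male cells. Dlk1 is high in Isl1CKO female cells only (57.2 CPM), Grb10 is highest in Isl1CKO male cells (102 CPM), and Mest is low in both Isl1CKO bars.

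Within each sex, Isl1CKO and control were compared again. In female endocrine cells 2 of 27 members were higher in Isl1CKO (all genes, 9.53%) and 8 lower (9.72%). In male endocrine cells 0 of 27 were higher (4.41%) and 6 lower (4.51%). Mest, Peg10, Nnat, Sgce and Ndn were lower in both sexes. Zdbf2 (−1.30), Mcts2 (−1.12) and Grb10 were lower in female cells besides, and Rasgrf1 (−1.06) in male cells. In alpha-factor cells 2 of 25 were higher and 8 lower among female (9.52% and 11.9% of all genes) and 2 of 26 higher and 5 lower among male cells (5.33% and 5.99%). Nnat, Peg10, Mest and Ndn were lower in both. In beta-factor cells 3 of 25 were higher and 8 lower among female (10% and 7.94%) and 0 of 26 higher and 4 lower among male cells (5.91% and 4.26%). There Nnat, Sgce and Mest were lower in both. Among Gcg-only cells 1 of 22 was higher and 7 were lower in female (8.78% and 14.5%) and 0 of 23 higher and 4 lower in male cells (7.31% and 10.7%). Among insulin-only cells 2 of 22 were higher and 3 lower in female (11% and 13.3%) and 2 of 23 higher and 3 lower in male cells (8.89% and 4.14%). Only 30 Isl1CKO Gcg-only cells were male and only 20 control insulin-only cells were female. Both numbers are under the minimum of 50 cells used for the groups.

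The hormone groups gave a second view of the same genes. In Gcg-only cells 3 of 25 measured members were higher in Isl1CKO (all genes, 8.83%) and 5 lower (10%). Zrsr1 was higher, with 25.5 CPM in Isl1CKO and 7.70 CPM in control (1.73), although not in male cells (−0.28). Mest and Nnat were also higher there on few UMIs, 27 in Isl1CKO and 32 in control for Mest and 21 and 26 for Nnat. Mest UMIs were in 4.07% of the 172 Isl1CKO and 1.65% of the 1577 control cells, and at 3000 UMIs in 0 of 165 Isl1CKO and 0.533% of control cells. With a hormone limit of 5% the Nnat ratio was −1.48 and that of Mest 0.72, so the direction for Nnat depended on that limit. Lower were Ndn (−1.61, 28.6 CPM in Isl1CKO and 88.3 CPM in control), Cdkn1c, Zdbf2 (−1.26, 73.4 and 176 CPM), Igf2r (−1.17, 10.9 and 25.2 CPM) and Rian (−1.03, 28.9 and 59.6 CPM). Igf2r was −0.10 in male cells and −0.55 at the 5% limit, Rian −0.70 in female cells, Zdbf2 −0.89 and Ndn −0.80 in male cells. All these male values rest on 30 Isl1CKO cells. In insulin-only cells 1 of 24 was higher, Dlk1 (all genes, 9.01%), and 3 were lower (5.85%). Nnat had 24.8 CPM in Isl1CKO and 179 CPM in control insulin-only cells, a log2 ratio of −2.86 (−3.05 to −2.66), Rasgrf1 11.9 and 34.2 CPM (−1.54) and Mcts2 5.38 and 14.7 CPM (−1.48). Without TMM scaling Rasgrf1 was −0.39 and Mcts2 −0.33, and 12 members were higher and 1 lower in insulin-only cells, since all log2 ratios stood 1.15 higher there. For Gcg-only cells the unscaled split was 3 higher and 3 lower, and it was 3 and 7 without hormone UMIs in the totals. These shifts move all genes and not the members alone. No share over all genes is given for them, so whether these counts are unusual cannot be told.

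Further lists placed the members among other genes of imprinting. Of 44 other genes of imprinted regions 23 were measured in endocrine cells, with 3 higher (all genes, 6.45%) and 2 lower (6.17%) in Isl1CKO and a median log2 ratio of −0.28. In alpha-factor cells 2 of 22 were higher (6.62%) and 6 lower (6.74%), and in beta-factor cells 4 of 23 were higher (6.6%) and 2 lower (6.1%). The 5 widest were Kcnq1, a potassium channel, with 6.15 CPM in Isl1CKO and 0.56 CPM in control (3.40), Slc38a4, an amino acid transporter, with 107 and 30.7 CPM (1.80), Nespas, an antisense RNA at Gnas, with 7.86 and 3.07 CPM (1.35), Asb4 with 1.81 and 5.13 CPM (−1.51) and Qpct with 2.21 and 6.07 CPM (−1.46). Of 18 factors that set or keep imprints 12 were measured, and 0 were at least 2-fold higher or lower in endocrine, alpha-factor or beta-factor cells. The shares over all genes were those given above for these groups, such as 6.45% higher and 6.17% lower in endocrine cells. With 12 genes, a count of 0 cannot be told apart from such shares. The widest endocrine ratio was that of Tet3, an enzyme that oxidises methylated cytosine, with 28.8 CPM in Isl1CKO and 14.5 CPM in control (0.99). Next came Tet2 with 43 and 22 CPM (0.96) and Dnmt1, the maintenance DNA methyltransferase, with 10.8 and 18.8 CPM (−0.80). Tet1 and Smchd1 were also lower, with 9.66 and 15.9 CPM (−0.72) and 35.3 and 50.1 CPM (−0.51). The count of 0 holds under TMM scaling. Unscaled CPM put all endocrine log2 ratios 0.54 higher, which takes Tet3 and Tet2 past 2-fold.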

How the data were processed

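The deposited files are whole-number UMI counts for 46984 features (46983 genes and tdTomato) in 6794880 barcodes of each of 2 libraries; the genome GRCm38.p6, Seurat 4.3.0.1, STAR 2.7.3a and STARsolo are named in the submitters' processing notes. The counts are unfiltered. The roles of the tools and the use of strand are not given in the sources used here.

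A barcode counted as a cell from 1000 UMIs and 500 genes on, with mitochondrial UMIs at 15% or less. Counts were summed per library and cell group, scaled by TMM (edgeR 4.0.16, R 4.3.3) against the control endocrine sum, and given as CPM with exact Poisson intervals. Log2 ratios used 1 added to each count and the exact conditional 95% interval of 2 Poisson counts. Shares have exact Clopper-Pearson intervals, at 3000 UMIs by random thinning in Python 3.11.15. Scrublet (scanpy 1.11.5) marked 216 control cells (5.12%) and, at its own threshold, 0 Isl1CKO cells, so it did not work there; at the control threshold of 0.2019 it marked 274 (3.33%). Doublets were kept, except in 1 alternative. The ratio step was tested on simulated counts. Gene positions are from GENCODE vM21, matched for 46488 IDs, and sequences from RefSeq.

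The named genes are every member with at least 20 UMIs; given in full are those past 2-fold in endocrine, alpha-factor or beta-factor cells with 1 sign under every scaling, and those at 50 CPM or more in a group of at least 50 cells. The factor set that defines alpha-factor cells is not listed in full, since 1 item is not reported here. Of the 2 other lists, counts and the 5 widest endocrine ratios are given. The members and lists were chosen with earlier results of these data known, and the comparison of female with male cells was added after seeing the data. Alternatives were unscaled CPM, totals without hormone genes, DESeq2 (1.42.0) size factors, no filter on low counts, at least 2000 UMIs and at most 10% mitochondrial UMIs, no doublets, 1 sex, a non-endocrine limit of 0.2%, a stricter factor rule (3 UMIs), and hormone limits of 5% and 0.5%.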

Additional observations from a re-analysis of the deposited data

Results flagged for a closer look

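The Isl1CKO over control log2 ratio had opposite signs in female and male cells for the genes below, with intervals on either side of 0. Each value compares 1 library with 1 library, the difference between the sexes was not tested, and sex cannot be told apart from the animal.

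In endocrine cells the ratio was 3.16 in female and −0.34 in male cells for Dlk1, 0.26 in female and −0.88 in male cells for Cdkn1c, 0.80 and −0.27 for Peg13, and 0.12 and −0.20 for Nap1l5, all positive in female cells. It was −1.46 in female and 0.79 in male cells for Grb10, −0.83 and 0.24 for Gnas, −0.73 and 0.39 for Zim1, −0.55 and 0.25 for Peg3, and −0.47 and 0.41 for Igf2r, all negative in female cells.

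In alpha-factor cells the ratio was −1.22 in female and 1.19 in male cells for Grb10, −1.23 and 0.28 for Gnas, −1.22 and 0.74 for Mcts2, −0.48 and 0.45 for Snrpn, and −0.22 and 0.61 for Peg3. For Nap1l5 it was 0.56 in female and −0.18 in male cells. In beta-factor cells Cdkn1c had 1.19 in female and −0.86 in male cells, and Igf2r −0.74 in female and 0.40 in male cells.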

How the results depend on the processing

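Counts of members at least 2-fold higher or lower in Isl1CKO moved by over 1.5 times as follows; the cause was not tested except where named. With unscaled CPM, which shifts all ratios upward, 3 were lower in endocrine, 4 higher in alpha-factor, 6 higher and 2 lower in beta-factor, 3 lower in Gcg-only, and 12 higher and 1 lower in insulin-only cells. With hormone genes out of the totals 1 was higher in endocrine cells, 1 higher and 7 lower in alpha-factor cells, and 5 were lower in female than in male Isl1CKO endocrine cells. Without doublets 2 were lower in alpha-factor cells. With no filter on low counts, which adds members on few UMIs, 2 were higher in beta-factor, 7 higher in Gcg-only, and 2 higher and 5 lower in insulin-only cells. In male cells 0 were higher in endocrine, beta-factor and Gcg-only cells and 2 in insulin-only cells. In female cells 8 were lower in endocrine, alpha-factor and beta-factor cells, 3 higher in beta-factor, 1 higher in Gcg-only and 2 higher in insulin-only cells. DESeq2 size factors gave the same counts in the 5 comparisons of Isl1CKO with control. Shares over all genes are given above for the male and the female cells. For the other alternatives no such share is given, so their counts cannot be set against a background.

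The sign turned for Dlk1 (−0.34) and Zrsr1 (−0.10) in male endocrine cells, for Zrsr1 in male alpha-factor (−0.40) and male Gcg-only cells (−0.28), and for Nnat in Gcg-only cells at a 5% hormone limit (−1.48). Of 1380 single-gene values under the alternatives, 1003 stayed within the counting interval. The 5 turns of sign above are those of members at 2-fold or more; over members of any size the sign differed in 143 values, of which 46 were with unscaled CPM, 41 in male and 19 in female cells.

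No paired analysis was possible because each genotype is 1 library and no test was made. The intervals leave out the spread between animals and libraries. The 54 Isl1CKO delta-factor cells and 172 Gcg-only cells, of which 30 were male, limit what can be seen there. The 20 female insulin-only cells of control do so as well. Sst-only and Ppy-only cells (3 each in Isl1CKO) could not be compared.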

Other observations

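Some genes under the level for being measured differed in UMI number; they were chosen after their values were seen. Igf2 had 43 UMIs in Isl1CKO and 1 in control insulin-only cells, from 928 and 188 cells. Mkrn3, a paternally read neighbour of Ndn, had 112 UMIs in Isl1CKO and 3 in control endocrine cells, and Ascl2 had 23 and 0. Th, tyrosine hydroxylase, had 39 UMIs in Isl1CKO and 123 in control.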
